A study of Mus musculus with 2 samples.

Results

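The genes described here copy DNA in S phase. They are 50 mouse genes, listed by symbol from general knowledge of origin licensing, the replicative helicase, the DNA polymerases, the sliding clamp and its loader, nucleotide supply, chromatin copying and entry into S phase. Of these, 49 had at least 1 probe set with no other gene symbol in the platform's table, out of 18193 genes so measured. Chaf1a, a subunit of the chromatin assembly factor CAF-1, had none and has no value here. The 49 genes were read by 110 probe sets. All 50 genes were chosen with earlier results of these data known.

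The data are log2 expression values from Affymetrix arrays hybridised with total RNA of pancreatic islets of male mice aged 6 weeks. The transgenic sample came from mice with the genotype miR-141/200c_overexpression, which make extra miR-141 and miR-200c, and the control sample from C57BL/6 mice, given as Bl6_control. The islets had no treatment before extraction. The labels do not spell out which promoter drives the transgene, nor whether the control mice were littermates, and they do not give the number of mice in a sample. The tissue field names islets and the source field beta cells. There was 1 array per genotype, so no value has a replicate error, no test was possible, and higher and lower describe these 2 arrays only. Each difference is the transgenic minus the control value on the log2 scale, where 1 is a 2-fold difference. A gene was called when it differed at least 2-fold. Because the islets were profiled in bulk, fewer cells of a type and less RNA per cell cannot be told apart.

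MicroRNAs of the miR-200 family repress messenger RNAs through a seed at positions 2 to 8 of the mature strand, counted from its 5′ end. The mature 3p strands of both overexpressed microRNAs, from the RefSeq annotation of GRCm38.p6, are shown with the seed in capitals because they define the genotype compared. They lie on the minus strand, at chr6:124717917-124717938 for miR-141 and chr6:124718324-124718346 for miR-200c. Their seeds differ by C4U, from miR-141 to miR-200c, with positions counted from the 5′ end. The microRNAs themselves were not analysed here.
miR-141-3p: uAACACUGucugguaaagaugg
miR-200c-3p: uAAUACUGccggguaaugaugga

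DNA replication is prepared in G1, when the origin recognition complex, Cdc6 and Cdt1 load the Mcm2 to Mcm7 helicase onto DNA. Cyclin E and Dbf4-dependent kinases then recruit Cdc45 and the GINS complex, and the polymerases follow behind the helicase with the clamp Pcna. Most of these genes are transcribed by E2F factors as cells enter the cycle and are low in cells at rest, whereas some factors also serve DNA repair and stay expressed in resting cells. Adult beta cells divide rarely, and more often in young mice.

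Most replication genes were higher in transgenic than in control islets. Of the 49 measured genes, 44 had a positive difference, against 51.3% of all 18193 measured genes. At least 2-fold higher were 9 of them, against 1.91% of all measured genes (348), and 0 were 2-fold lower, against 0.368% (67). The 9 were Mcm5, Tk1, Rfc5, Dtl, Lig1, Uhrf1, Rfc4, Orc6 and Mcm10. By a 1.5-fold rule 21 of the 49 were higher, against 6.13% of all measured genes. The median difference of the 49 was 0.55, beside 0.0094 over all measured genes. The lowest member was Chaf1b at -0.47 and the highest Mcm5 at 1.48.

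The same counts were taken over genes whose mean of both arrays reached 5.76, the median of all probe set values. This level is called the floor below. It kept 48 of the 49 genes, all except Tyms, and 11835 genes in all. Of these 48 genes, 43 had a positive difference, against 53.9% of the 11835, and 9 were at least 2-fold higher, against 2.26%. Their median difference was 0.56, and 39 of the 48 lay above 0.23, the upper quartile of the 11835. The genes nearest to the 2-fold rule were Mcm10 at 1.001, Orc6 at 1.04 and Rfc4 at 1.09 inside it, and Cdt1 at 0.92, Gmnn at 0.91 and Pole at 0.86 outside it.

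**Figure D1:**
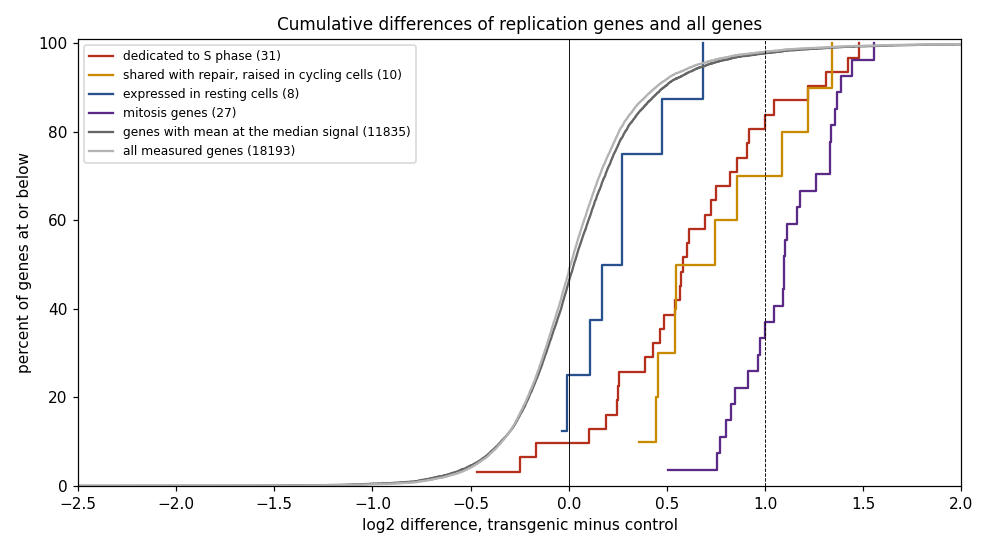
Cumulative percentage of genes (vertical axis) at or below each log2 difference, transgenic minus control (horizontal axis), for 3 classes of replication genes, mitosis genes, genes at the floor and all measured genes. The dedicated and shared classes lie to the right of all genes over most of their range, with medians of 0.58 and 0.65, and the resting class, with a median of 0.22, lies between.

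Many replication genes held promoter letters of the kind that E2F factors bind. RefSeq promoters of GRCm38.p6, 300 bases long from 250 before to 50 after the annotated start, were found for 42 of the 50 genes. They were searched on both strands for the E2F letters TTCCCGC and TTGGCGC, for the CCAAT box (CCAAT), bound by NF-Y, and for TTTGAA, a form of the CHR element of genes expressed in G2 and mitosis. TTGGCGC can overlap its own reverse complement, and it can share letters with a CCAAT box on the other strand. A gene with several annotated starts counted when any of them held the letters. The E2F letters stood in 24 of 42 promoters (57.1%), beside 7.79% of all 27025 genes with a promoter and 14.2% of the 9562 that were also at the floor. The CCAAT box stood in 24 of 42 (57.1%), beside 41.1% of all genes and 42.3% of genes at the floor. TTTGAA stood in 7 of 42 (16.7%), beside 20.2% and 13.9%. The E2F letters contain CpG, and the promoters of replication genes held a median of 25 CpG pairs, beside 20 in promoters of genes at the floor and 7 in all promoters. A match of letters is a description and shows no binding.

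The promoters with E2F letters did not belong to 1 class of replication gene. Of genes dedicated to S phase 15 of 27 held them, of those shared with repair 5 of 9, and of those expressed in resting cells 4 of 6. The 23 measured genes with E2F letters had a median difference of 0.68, with 5 at least 2-fold higher. The 18 without them had a median of 0.45, with 4 at least 2-fold higher. Of all measured genes, 1.91% were at least 2-fold higher. The ranges overlapped, from -0.47 to 1.48 with the letters and from -0.25 to 1.42 without them, and the medians had no test. Mitosis genes had another pattern of letters, with TTTGAA in 18 of 25 promoters (72%), the CCAAT box in 20 (80%) and E2F letters in 4 (16%).

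Stretches from 170 bases before to 30 after the annotated start are shown for the genes that were called and held E2F letters there, Mcm5, Dtl, Uhrf1, Rfc4 and Lig1. Mcm6 and Rpa3 stand for genes with these letters that were not called (Rpa3 is of the class expressed in resting cells), and Tk1 and Rpa1 for genes without them, of which Tk1 was called. Capitals mark the E2F letters on either strand. The stretches lie at chr8:75109339-75109538 on the plus strand (Mcm5), chr1:191575515-191575714 on the minus strand (Dtl), chr17:56303167-56303366 on the plus strand (Uhrf1, the first of 2 annotated starts), chr16:23127701-23127900 on the minus strand (Rfc4), chr7:13279095-13279294 on the plus strand (Lig1, the third of 3 starts), chr1:128359676-128359875 on the minus strand (Mcm6), chr6:8259112-8259311 on the minus strand (Rpa3), chr11:117825985-117826184 on the minus strand (Tk1) and chr11:75348354-75348553 on the minus strand (Rpa1). All are from GRCm38.p6 and are written 5′ to 3′ on the strand of the gene. Mcm5 has its pair of matches upstream, beginning 164 and 149 bases before the start. Dtl has them at 109 and 7 bases before it, and Uhrf1 has its match at 48 bases before it.
Mcm5: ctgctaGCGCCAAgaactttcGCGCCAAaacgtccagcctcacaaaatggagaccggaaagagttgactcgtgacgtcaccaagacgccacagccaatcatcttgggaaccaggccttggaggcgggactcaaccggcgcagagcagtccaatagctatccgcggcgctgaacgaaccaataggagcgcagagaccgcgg
Dtl: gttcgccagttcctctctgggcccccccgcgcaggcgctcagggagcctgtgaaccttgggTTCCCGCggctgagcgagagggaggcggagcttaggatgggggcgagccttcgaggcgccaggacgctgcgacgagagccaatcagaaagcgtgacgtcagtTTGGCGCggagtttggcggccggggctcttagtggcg
Uhrf1: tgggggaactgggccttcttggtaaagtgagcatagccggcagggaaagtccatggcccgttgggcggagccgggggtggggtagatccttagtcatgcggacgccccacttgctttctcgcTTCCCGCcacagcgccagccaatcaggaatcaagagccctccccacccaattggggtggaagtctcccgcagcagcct
Rfc4: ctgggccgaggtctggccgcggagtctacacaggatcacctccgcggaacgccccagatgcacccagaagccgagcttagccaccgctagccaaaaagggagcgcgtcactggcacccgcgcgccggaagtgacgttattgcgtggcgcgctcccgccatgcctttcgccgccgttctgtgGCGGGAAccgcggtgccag
Lig1: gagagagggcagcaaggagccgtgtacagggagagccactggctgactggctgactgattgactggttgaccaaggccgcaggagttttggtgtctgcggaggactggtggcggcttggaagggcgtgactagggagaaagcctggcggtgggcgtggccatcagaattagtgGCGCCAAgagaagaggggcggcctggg
Mcm6: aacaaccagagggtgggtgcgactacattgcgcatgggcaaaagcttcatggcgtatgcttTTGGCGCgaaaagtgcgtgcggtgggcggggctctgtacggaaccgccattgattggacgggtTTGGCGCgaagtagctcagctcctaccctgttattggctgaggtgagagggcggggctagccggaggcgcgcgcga
Rpa3: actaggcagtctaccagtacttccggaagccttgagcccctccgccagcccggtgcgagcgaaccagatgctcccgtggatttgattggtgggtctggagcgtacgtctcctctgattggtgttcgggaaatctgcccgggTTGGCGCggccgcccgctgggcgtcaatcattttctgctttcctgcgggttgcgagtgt
Tk1: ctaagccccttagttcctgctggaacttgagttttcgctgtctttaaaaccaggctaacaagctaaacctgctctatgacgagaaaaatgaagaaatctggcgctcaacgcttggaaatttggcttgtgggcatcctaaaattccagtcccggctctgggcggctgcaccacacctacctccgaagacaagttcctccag
Rpa1: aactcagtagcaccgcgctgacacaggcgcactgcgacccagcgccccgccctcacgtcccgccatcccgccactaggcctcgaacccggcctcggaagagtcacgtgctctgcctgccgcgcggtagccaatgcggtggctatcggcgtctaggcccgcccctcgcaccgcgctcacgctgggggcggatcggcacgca

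**Figure D2:**
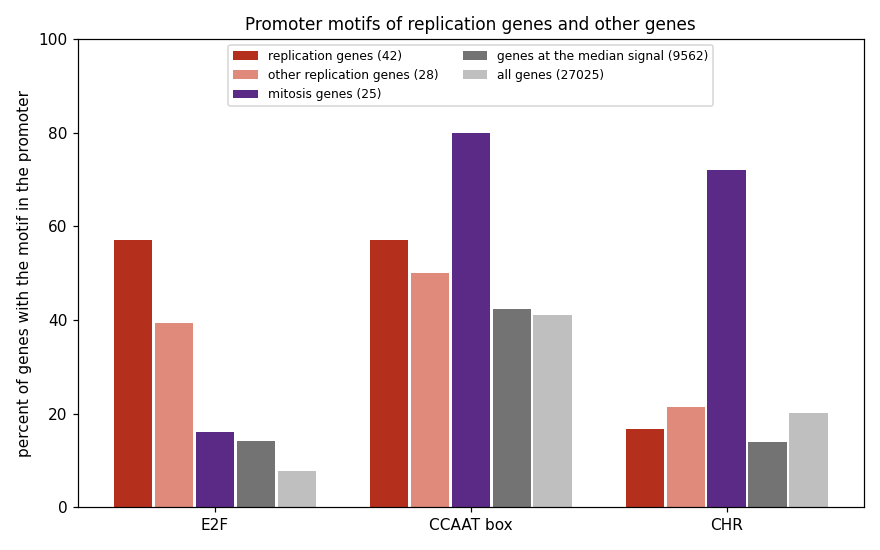
Percentage of genes (vertical axis, from 0) whose 300-base promoter holds the E2F letters, the CCAAT box or the CHR letters, for replication genes, other replication genes, mitosis genes, genes at the floor and all genes, with the number of genes in the legend. E2F letters stood in 57.1% of replication genes and 7.79% of all genes, and CHR letters in 72% of mitosis genes.

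Licensing genes were higher, with 4 of 5 positive and a median of 0.91. Orc6, a subunit of the origin recognition complex, read 9.23 in transgenic and 8.19 in control islets, 2.06-fold higher. Cdt1, which loads the Mcm helicase, read 9.73 in transgenic and 8.81 in control islets, higher by 0.92, with 1.28 on its other probe set at the floor. Gmnn, or geminin, which blocks Cdt1 outside G1, differed by nearly the same amount, with 8.32 in transgenic and 7.41 in control islets (0.91). Cdt1 and its inhibitor were both higher. Cdc6, an ATPase that loads the helicase with Cdt1, read 6.59 in transgenic and 5.73 in control islets, where it was below the floor. Orc1, an ATPase subunit of the origin recognition complex, was the exception with 6.39 in transgenic and 6.64 in control islets (-0.25). Its other probe set was below the floor and gave 0.55, so the sign of Orc1 depended on the probe set.

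All 11 genes of the helicase and its assembly factors were higher on their main probe sets, with a median of 0.69. Of them 2 were called, against 1.91% of all measured genes at least 2-fold higher. The 6 subunits of the Mcm2 to Mcm7 ring, which are present in equal numbers in the complex, differed by unequal amounts. Mcm5 had the highest difference, with 8.24 in transgenic and 6.77 in control islets (2.78-fold). Its main probe set is of the _x class, whose probes can match other transcripts, and its probe set of the plain class gave 0.996, just under the rule. Mcm3 read 8.35 in transgenic and 7.53 in control islets (0.82), with 0.07 to 1.33 on its 4 other probe sets. Mcm6 read 9.40 in transgenic and 8.65 in control islets (0.75), and Mcm7 10.50 in transgenic and 9.81 in control islets (0.69). The 3 other probe sets of Mcm7 gave 0.58 to 0.65, close to its main one. Mcm2 read 9.69 in transgenic and 9.08 in control islets (0.61), the same difference as its other probe set. Mcm4 stood last in the ring, at 9.41 in transgenic and 8.95 in control islets (0.46).

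The factors that turn the loaded ring into an active helicase were also higher, and 1 of them was called. Mcm10, needed for helicase activation, read 7.40 in transgenic and 6.40 in control islets, just inside the rule (2.00-fold), and its other probe sets were below the floor with differences of 0.07 and -0.01. Cdc45, which joins the helicase with GINS, read 6.91 in transgenic and 6.34 in control islets (0.57), and its other probe set gave 0.05. Of the GINS subunits, Gins1 read 6.32 in transgenic and 5.60 in control islets, where it was below the floor. Its other probe set was below the floor on both arrays and gave -0.23, so the sign of Gins1 depended on the probe set. Gins2 read 8.28 in transgenic and 7.89 in control islets (0.39) on a probe set of the _s class. Its probe set of the plain class, with a mean below the floor, gave 0.98. Gins3 read 7.03 in transgenic and 6.78 in control islets (0.25), the lowest difference of the 11 helicase genes.

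**Figure D3:**
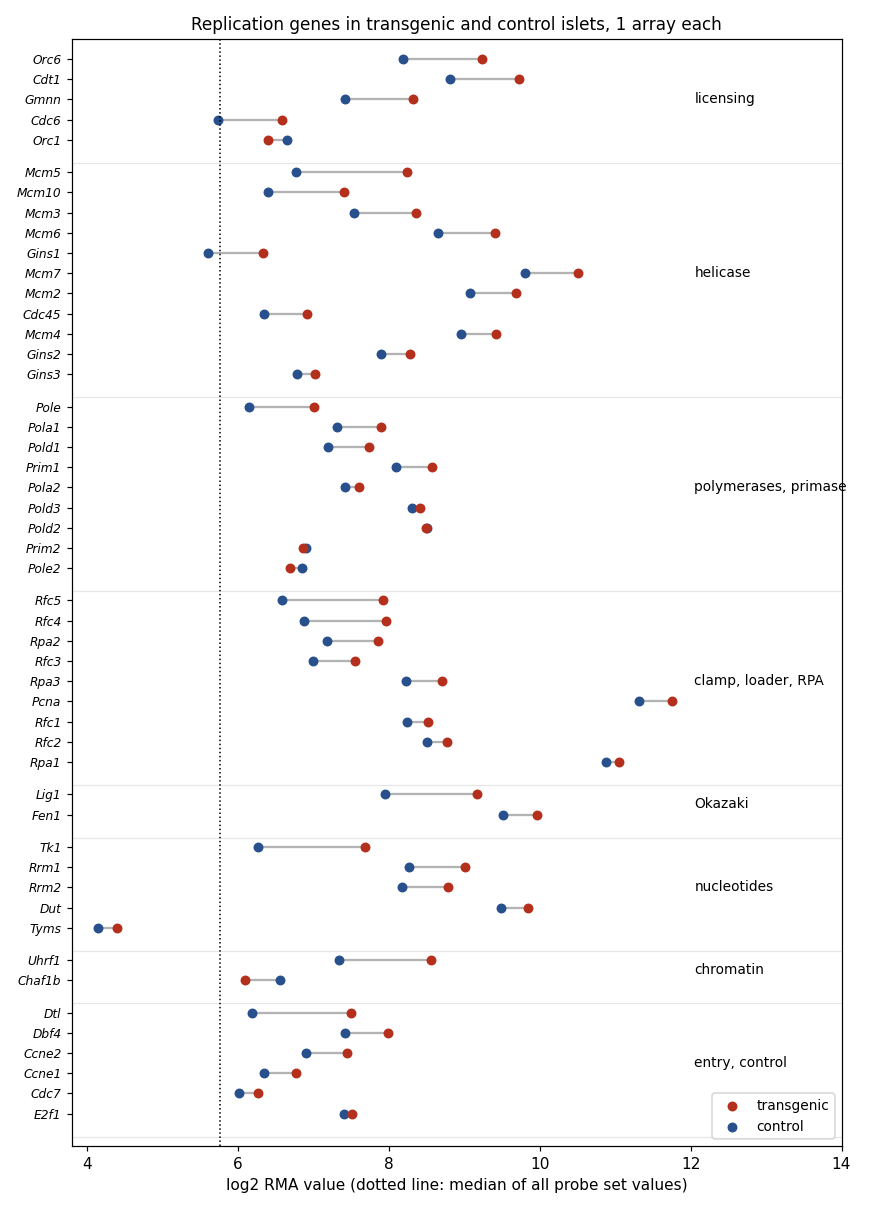
Log2 values (horizontal axis) of the 49 measured replication genes in transgenic (red) and control (blue) islets, 1 array each, grouped by role, with the floor as a dotted line. All 11 helicase genes and all 9 clamp, clamp loader and single-strand binding genes have the transgenic value on the right, while 3 of 9 polymerase and primase genes do not.

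The polymerases and primase had the lowest median difference of the roles, with 6 of 9 positive, a median of 0.19 and 0 called. Over all measured genes 51.3% were positive and 1.91% at least 2-fold higher, so 0 called of 9 does not set this role apart. Pole, the catalytic subunit of the leading strand polymerase, had the highest difference, with 7.001 in transgenic and 6.14 in control islets (0.86). Its partner subunit Pole2 went the other way, with 6.68 in transgenic and 6.85 in control islets (-0.17). The other probe set of Pole2 was below the floor and gave 0.37, so its sign depended on the probe set. Pola1, the catalytic subunit of polymerase alpha, which starts each new strand with primase, read 7.89 in transgenic and 7.31 in control islets (0.58), and its accessory subunit Pola2 7.61 in transgenic and 7.42 in control islets (0.19). The other probe sets of Pola2 were below the floor and gave -0.54 and -0.37, so its sign depended on the probe set. That of Pola1, also below the floor, gave -0.04. The primase subunits also differed from each other. Prim1, the catalytic one, read 8.57 in transgenic and 8.09 in control islets (0.49), and Prim2 read 6.86 in transgenic and 6.90 in control islets (-0.03). For polymerase delta, which extends the lagging strand, the catalytic Pold1 read 7.73 in transgenic and 7.19 in control islets (0.54). Its accessory subunit Pold2 read 8.49 in transgenic and 8.51 in control islets (-0.01), and Pold3 read 8.41 in transgenic and 8.30 in control islets (0.11). On the main probe sets of polymerases alpha, delta and epsilon and of primase, the catalytic subunit had the higher difference. This pattern was seen after the values were known. For delta the order depended on the probe set, with 0.32 on the other one of Pold1 and 0.34 on 1 of Pold3. The other probe sets of Prim2 and Pold3 at the floor had 1 of 1 and 1 of 2 of the opposite sign.

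The clamp, the clamp loader and the single-strand binding protein were higher in all 9 genes, with a median of 0.48. Pcna, the clamp that holds polymerases on DNA, read 11.75 in transgenic and 11.31 in control islets (0.44). Replication factor C, the loader of Pcna, was uneven across its 5 subunits. Rfc5 read 7.92 in transgenic and 6.59 in control islets (2.53-fold), and Rfc4 read 7.97 in transgenic and 6.88 in control islets (2.13-fold), with its other probe set at 1.15. Rfc3 read 7.54 in transgenic and 6.997 in control islets (0.55). The large subunit Rfc1 read 8.51 in transgenic and 8.24 in control islets (0.27), and Rfc2 8.77 in transgenic and 8.50 in control islets (0.27). Rfc1 and Rfc2 thus lay below the other 3 subunits on their main probe sets, but the other probe sets of Rfc1 gave 0.61 and 0.83. Replication protein A coats single-stranded DNA in replication and repair. Its subunit Rpa2 read 7.86 in transgenic and 7.18 in control islets (0.68), Rpa3 8.71 in transgenic and 8.23 in control islets (0.48) and Rpa1 11.05 in transgenic and 10.88 in control islets (0.17).

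Joining of lagging strand fragments is the work of Fen1, a flap nuclease, and Lig1, a DNA ligase. Lig1 was called, with 9.17 in transgenic and 7.95 in control islets (2.33-fold). Fen1 was not, with 9.96 in transgenic and 9.51 in control islets (0.45), and its other probe set gave 0.50.

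Nucleotide supply was led by Tk1, a thymidine kinase that is degraded at the end of mitosis, with 7.68 in transgenic and 6.26 in control islets (2.68-fold). Both subunits of ribonucleotide reductase, which makes deoxyribonucleotides, were higher. Rrm1 read 9.01 in transgenic and 8.27 in control islets (0.75), and its other probe set at the floor gave 0.94. Rrm2 read 8.78 in transgenic and 8.18 in control islets (0.60), and its other probe sets gave 0.77 and 1.12. Dut, which removes dUTP, read 9.84 in transgenic and 9.49 in control islets (0.36). Tyms, thymidylate synthase, was below the floor on both arrays, with 4.40 in transgenic and 4.14 in control islets, as were its 3 other probe sets with that single symbol. A probe set shared with its pseudogene read higher and is given in the closing section.

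Of the genes that copy chromatin, Uhrf1, which brings the maintenance methyltransferase Dnmt1 to newly copied DNA, read 8.55 in transgenic and 7.33 in control islets (2.33-fold). Its other probe set, with a mean below the floor, gave 0.47. Chaf1b, a subunit of CAF-1, had the lowest difference of all 49 genes, with 6.09 in transgenic and 6.55 in control islets (1.38-fold lower). Its other probe set gave 0.25, so the sign of Chaf1b depended on the probe set.

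All 6 genes of entry and control were higher on their main probe sets, with a median of 0.49. Dtl, which with Pcna directs the destruction of Cdt1 in S phase, read 7.50 in transgenic and 6.19 in control islets (2.48-fold). Its 5 other probe sets were below the floor, with differences from -0.20 to 0.77. Dbf4, the activator of the kinase Cdc7, read 7.99 in transgenic and 7.42 in control islets (0.57), and Cdc7 itself 6.27 in transgenic and 6.01 in control islets (0.26). The sign of Cdc7 was not stable, with -0.05 on its other probe set and -0.07 after a second quantile normalization. The E-type cyclins, which with Cdk2 drive entry into S phase, were higher by similar amounts. Ccne2 read 7.44 in transgenic and 6.90 in control islets (0.54), and Ccne1 6.77 in transgenic and 6.34 in control islets (0.43), although a second probe set of Ccne1 gave 0.04. E2f1, a transcription factor that activates many of the genes named here, had the lowest difference of the 6, with 7.51 in transgenic and 7.41 in control islets (0.11).

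Other probe sets of the same genes mostly had the same sign. Beside the main ones, 33 probe sets of replication genes were at the floor, and 29 (87.9%) of them had the sign of their gene's main probe set, against 66.7% of 7963 over all genes. With the main ones included, of 81 probe sets of replication genes at the floor, 74 (91.4%) had a positive difference, against 51.7% of the 19798 probe sets at the floor of all genes, and 13 of the 81 were at least 2-fold higher, against 377 of the 19798 (1.90%). Over all 110 probe sets, with those below the floor, 92 (83.6%) were positive. For 25 replication genes with several probe sets at the floor, the furthest probe sets of a gene lay a median of 0.21 apart, beside 0.26 over 4962 genes. Probe sets of 1 gene share their RNA and do not replicate each other, so this spread leaves out error between arrays and between samples. The differences of Orc1, Pole2, Prim2, Pold2, Pold3, Rpa1, Pola2, E2f1, Gins3, Tyms and Cdc7 lay within 0.26 of 0, the spread over all genes. A larger difference is not thereby shown to exceed technical error.

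**Figure D4:**
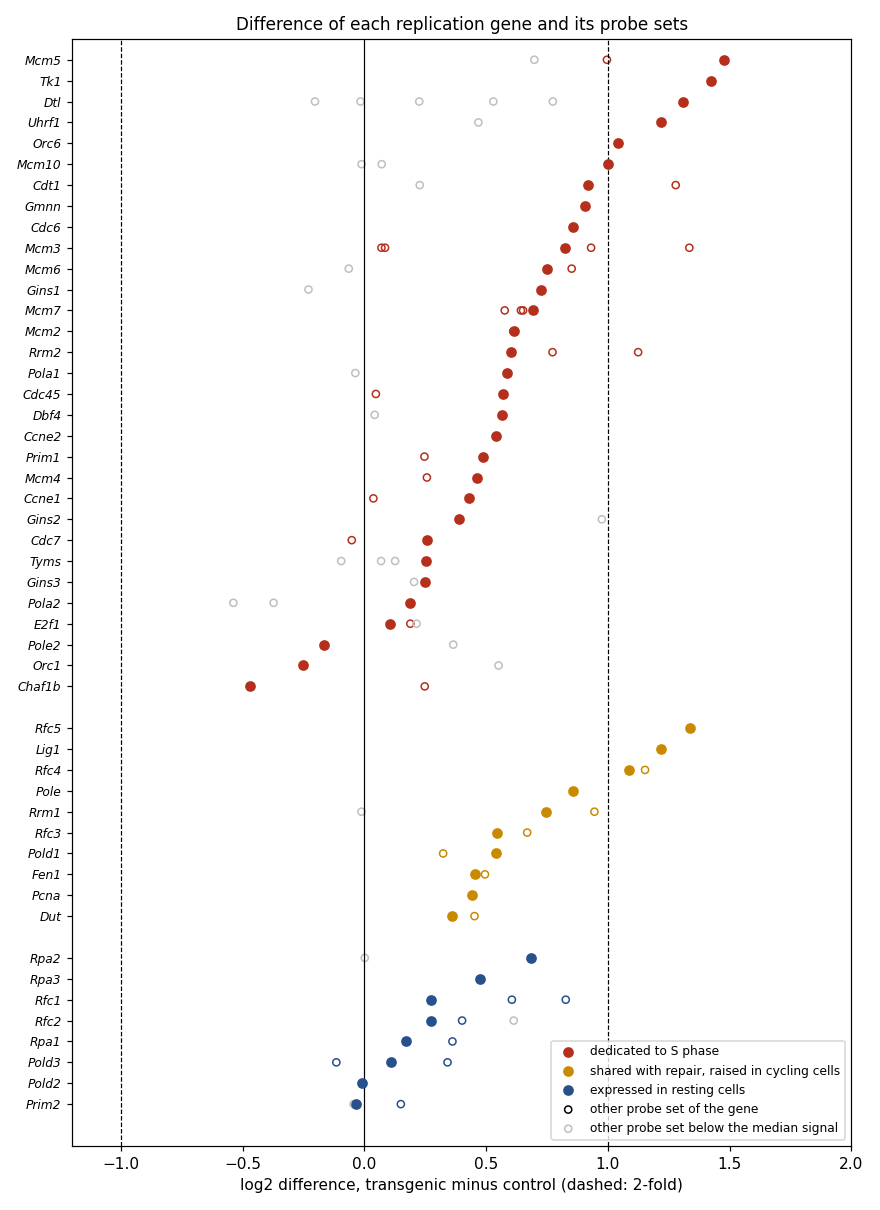
Log2 difference, transgenic minus control (horizontal axis), of the main probe set (filled) and the other probe sets (open, grey where below the floor) of each replication gene, coloured by class, with dashed lines at 2-fold. The 9 called genes belong to the dedicated and the shared class. On their main probe sets, the 8 genes expressed in resting cells lie between -0.03 and 0.68. The other probe sets of these 8 genes at the floor run from -0.12 to 0.83. Of all measured genes, 1.91% were at least 2-fold higher.

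The genes were set in 3 classes from general knowledge of their use, but with earlier results of these data already known. The dedicated class holds 32 genes used in S phase, of which 31 were measured. The shared class holds 10 genes that serve repair and are also raised in cycling cells (Pcna, Fen1, Lig1, Pold1, Pole, Rfc3, Rfc4, Rfc5, Rrm1 and Dut). The resting class holds 8 genes expressed in resting cells (Rpa1, Rpa2, Rpa3, Rfc1, Rfc2, Pold2, Pold3 and Prim2). Dedicated genes were positive in 28 of 31, with 6 called and a median of 0.58, and shared genes in 10 of 10, with 3 called and a median of 0.65. Resting genes were positive in 6 of 8, with 0 called and a median of 0.22. Of all measured genes 1.91% were at least 2-fold higher, so 0 called of 8 does not set the resting class apart. The median of the dedicated class lay 0.36 above that of the resting class. This gap was 0.063 when all probe sets of a gene were averaged, including those below the floor, and 0.30 when only those at the floor were. The classes overlap: Rpa2 at 0.68 lay above the dedicated median, and 3 dedicated genes were negative on their main probe sets, Pole2, Orc1 and Chaf1b. With 1 array per genotype the gap has no test, and the classes were not set blind to these data.

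Further replication genes outside the 50 were higher by less as a list. Of 34 measured, 30 were positive, against 51.3% of all measured genes, and 5 were called higher, against 1.91%. Their median was 0.33. Hells, a chromatin remodeller, was 3.13-fold higher, although its other probe set at the floor gave -0.13. Clspn, or claspin, a checkpoint mediator at the fork, read 7.51 in transgenic and 6.09 in control islets (2.68-fold). Dscc1, of an alternative Pcna loader, Asf1b, a histone chaperone, and Atad5, which unloads Pcna, were 2.33-fold, 2.24-fold and 2.18-fold higher. The origin recognition subunits that are not among the 50 genes, Orc2, Orc3, Orc4 and Orc5, named after their values were seen, lay between -0.17 and 0.09 on their main probe sets, beside Orc6 at 1.04. Their other probe sets at the floor ran from -0.17 to 0.31. Dnmt1, the maintenance DNA methyltransferase, stood at 0.45, and Rrm2b, a ribonucleotide reductase subunit used outside S phase, at 0.12.

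In the E2F and Rb network, 26 of 32 genes were positive, against 51.3% of all measured genes. Of the 32, 3 were called higher, against 1.91%, and the median was 0.30. E2f8, an E2F repressor that is itself raised in S phase, read 7.54 in transgenic and 6.35 in control islets (2.29-fold). Ccna2, cyclin A2, was 2.16-fold higher and Cdkn2c, an inhibitor of Cdk4 and Cdk6, 2.01-fold. Rb1, which holds E2F factors inactive, stood at 0.57 and Cdkn1a, the inhibitor p21, at 0.89.

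Mitosis genes had a higher median difference than the replication genes. All 27 measured were positive, 17 were called and the median was 1.10, beside 0.55 for the 49 replication genes. Of all measured genes, 51.3% were positive and 1.91% at least 2-fold higher. Tpx2, a spindle factor, was 2.93-fold higher, although 2 of its 3 other probe sets at the floor had the opposite sign (-0.30 to 1.21). Nuf2, of the kinetochore, was 2.72-fold higher, Top2a, a topoisomerase, 2.61-fold and Ect2, of cytokinesis, 2.58-fold. Mki67, the proliferation marker, read 10.29 in transgenic and 8.93 in control islets (2.56-fold), the motor Cenpe was 2.53-fold higher and Cdk1, the kinase of mitosis, 2.13-fold. The range of the mitosis genes, from 0.51 to 1.55, overlapped that of the replication genes, from -0.47 to 1.48.

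**Figure D5:**
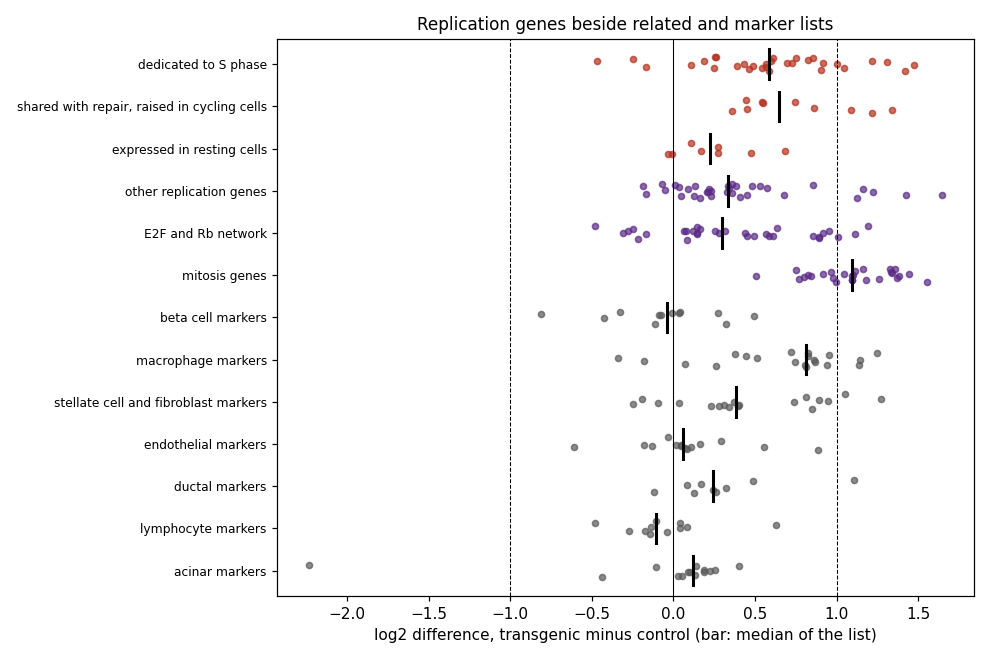
Log2 difference, transgenic minus control (horizontal axis), of each gene of 13 lists (rows), with bars at the medians and dashed lines at 2-fold. Mitosis genes and macrophage markers have the higher medians, 1.10 and 0.81, and the replication classes lie at 0.58, 0.65 and 0.22.

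Macrophage and stellate cell markers were also higher in transgenic islets. Beta cell markers were present at high signal, with a median value of 12.47 in transgenic and 12.27 in control islets, and differed in both directions (5 of 12 positive, median difference -0.042, 0 called). The lowest and highest were Ucn3, a peptide of mature beta cells, at -0.81 and Abcc8, a potassium channel subunit, at 0.49, both named after their values were seen. The insulin gene Ins2 read 14.95 in transgenic and 15.02 in control islets, near the top of the scale. Macrophage markers were positive in 18 of 20, with 3 called, a median value of 8.08 in transgenic and 7.60 in control islets and a median difference of 0.81. Of these, Ctss, cathepsin S, differed by 0.83, Lyz2, lysozyme, by 0.26 and C1qa, of complement, by 0.38, and 3 of the 20 were below the floor on both arrays (Itgam, Cx3cr1 and Mrc1). Stellate cell and fibroblast markers were positive in 15 of 18, with 2 called, a median value of 7.96 in transgenic and 7.57 in control islets and a median difference of 0.38, and Rgs5, a pericyte gene, stood at 0.95, Sparc at 0.40 and Vim at 0.23. Col1a1 and Pdgfra were below the floor on both arrays. Of all measured genes, 51.3% were positive and 1.91% at least 2-fold higher. Acinar markers had a median value of 13.57 in transgenic and 13.53 in control islets, above that of the beta cell markers. Endothelial (0.060, 10 of 14 positive), ductal (0.24, 8 of 9), acinar (0.12, 11 of 14) and lymphocyte (-0.11, 4 of 11) markers had median differences nearer to 0. Among them were 2 called genes, named after their values were seen, Ctrc, an acinar protease, at -2.23 and Prom1, a ductal marker, at 1.11. The 4 red blood cell markers measured were all below the floor. The part of macrophages, stellate cells and acinar cells in the replication gene differences was not tested, and the replication signal was not assigned to a cell type.

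The arrays had equal medians of 5.76, and their values correlated with an r of 0.988 across 45101 probe sets, which are not independent. The hybridisation controls, which are added to the labelled sample, differed by a median of 0.40 over 18 probe sets, transgenic minus control. The poly-A controls, added to the RNA, differed by 1.51 over 24. All 18 and all 24 were higher on the transgenic array. The poly-A median lay above the highest replication gene, Mcm5 at 1.48. How this shift bears on the gene differences was not tested. All differences given here are relative to the overall distribution of each array, and amounts of RNA per islet were not measured.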

How the data were processed

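RNA of 2 islet samples, grouped by the genotype in the labels, was measured on 1 array each. The authors deposited log2 expression values per probe set, made by RMA in Affymetrix Expression Console per the submitters' processing notes, with no versions named. RMA brings both arrays to 1 distribution, gives no detection call and compresses differences at low and high signal. Symbols came from the platform table (34945 of 45101 probe sets had 1 symbol) and were updated by Entrez identifier to GRCm38.p6 for 34741. Genes were represented by the probe set of highest mean, without a filter on low values. The size rule was 2-fold, and counts were also taken at a floor of 5.76. The number of arrays limits the precision.

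The members, the lists and their classes were chosen with earlier results of these data known. All 50 members could be named. Of other lists, up to 6 called genes and 8 genes fixed by name were, and of marker lists the 3 of highest signal, unless said otherwise. Alternatives were averaged probe sets, probe set classes, 3 floors, a lowess trend (span 0.3, statsmodels 0.14.6), a second quantile normalization and a 1.5-fold rule. Averaging only probe sets at the floor was added after seeing the data. A fixed shift added to shuffled differences was recovered in their median, which holds by construction and does not test the counts. Scripts ran in Python 3.11.15, numpy 2.4.6 and pandas 2.3.3.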

Additional observations from a re-analysis of the deposited data

Results flagged for a closer look

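Thymidylate synthase is also read by a probe set of the _s class that the gene comparison left out because the platform table names both Tyms and its pseudogene Tyms-ps for it. It read 8.44 in transgenic and 7.56 in control islets, a log2 difference of 0.88, while the 4 probe sets with Tyms as their single symbol were below the floor of 5.76 on both arrays. Transcripts of the gene and of its pseudogene cannot be told apart in this value.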

How the results depend on the processing

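Of 49 replication genes, 9 were at least 2-fold higher. A stricter floor of 7.81, the 75th percentile, which kept 23 of the genes, left 3, and the 1.5-fold rule gave 21. Averaging all probe sets of a gene gave 6, without Uhrf1 (0.84), Dtl (0.44) and Mcm10 (0.35). The median of the 49 ran from 0.44 to 0.57 over all alternatives, and 0 genes were 2-fold lower in any. Averaging all probe sets lowered the gap between the dedicated and the resting class to 0.063 and the median of mitosis genes to 0.77. The median of fragment joining was 1.22 without the _s, _x and _a probe sets, and that of chromatin genes 1.22 with the stricter floor, each with 1 gene left. No median of the replication genes, their classes and roles, the other replication genes, the E2F and Rb network or the mitosis genes changed sign in these alternatives, and marker lists were not recomputed. Single genes moved by over 0.26, the spread between probe sets, in 23 cases, among them Mcm10, at 0.07 without the _a probe set. No paired analysis was possible because each group has 1 sample, and for the same reason no replicate could be left out.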

Other observations

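Brakes of the cell cycle differed in both directions. Cdkn2c and Cdkn1a were higher, at 1.01 and 0.89, the other probe set of Cdkn1a gave 1.14, and Cdkn1a is also a target of p53. Cdkn1b, the inhibitor p27, read 10.18 in transgenic and 10.45 in control islets (-0.28), and Cdkn1c, the inhibitor p57, 5.87 in transgenic and 6.35 in control islets (-0.48). The D-type cyclins, which start the cycle in beta cells, did not share a direction: Ccnd1 stood at -0.31, with its 2 other probe sets also negative, Ccnd2 at 0.14 and Ccnd3 at 0.44, where its other probe set gave -0.27. Among E2F factors, E2f2 stood at 0.89 and E2f7, a repressor, at 0.85, beside E2f1 at 0.11. Cdkn1b, Cdkn1c, the D-type cyclins, E2f2 and E2f7 were named after their values were seen.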
